A study of Mus musculus with 2 samples.

Results

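Protein kinases outside the cell cycle were followed in lung of mice deficient for Bclaf1, a nuclear protein that binds RNA and chromatin. The members were clones in the authors' 2 tables of up- and down-regulated genes that carried a gene symbol and the annotation protein kinase activity or protein phosphorylation, without a term for the cell cycle, cell division, mitosis, DNA replication, mitochondrion, translation or RNA processing. This gave 77 clones of 67 genes, out of 2597 clones and 2327 genes with a symbol in those tables and 22656 clones on the array. Ratios from both arrays were deposited for 76 clones of 66 genes. The other member, Lyn, had a ratio on 1 array. A further 16 kinase-annotated genes carried an excluded term and 1 was left out by name, of 84 in all. No measured value entered this choice directly, but the authors had drawn both tables from these same 2 arrays, so the side on which a clone lies, its size and its spread are descriptions and not independent evidence.

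The data were 2 two-colour hybridisations of lung RNA to a mouse cDNA clone array. On each, RNA labelled as wild type for Bclaf1 carried Cy5 and RNA labelled as Bclaf1 knock out carried Cy3. The sample titles give embryonic day 19, whereas the series text gives postnatal day 1. Strain, allele and sex, and whether the 2 pairs came from separate animals, are not given by the labels. A p-value therefore sets a mean ratio against the spread between 2 hybridisations, which the main test partly pools over all clones. That spread may be technical alone. The dyes were not exchanged between arrays, and dye and genotype cannot be told apart. The deposited value was a log2 ratio per clone, whose numerator is not stated. All member clones of the authors' up-regulated table had positive mean ratios and all of the down-regulated one negative ones, and the text therefore speaks of a positive side, which holds that table, and a negative side, which holds the down-regulated one. A positive ratio is a higher level in the knock out RNA if the ratio is Cy3 over Cy5, and a lower one if it is Cy5 over Cy3, so the meaning of all sides exchanges together. The clone for Bclaf1 itself lay on the positive side, at 0.40 on array 1 and 0.41 on array 2 (0.41 ± 0.0083, SD, n = 2). Because neither the deleted part of Bclaf1 nor the place of this clone in the gene was given, that value does not check the labels. Ratios carry no expression level, so lung markers could not be used to check the tissue. Among listed cell markers, 0 alveolar, airway and red cell genes were in the authors' tables.

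A protein kinase moves phosphate from ATP onto serine, threonine or tyrosine of another protein, and phosphatases take it off again. Receptor tyrosine kinases sit in the plasma membrane and bind growth factors, cytoplasmic tyrosine kinases and MAP kinase cascades relay the signal, and kinases of the AGC, CAMK, CMGC and CK1 families act on metabolism, the cytoskeleton, ion transport and transcription. In developing lung, FGF signalling through Fgfr2 drives branching of the airway epithelium. By reference lists of the mouse kinase families, 58 of the 67 members were protein kinases or close relatives without proven activity. The other 9 carry the annotation but are not protein kinases by these lists: Adam10, Fastkd3, Krt8, Palld, Pan3, Pik3ca, Prkar1a, Ptpra and Rela. Annotated absence from the cell cycle was also incomplete, since Melk, Plk2 and BC052883, the current Wee2, are known from studies of cell division.

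Promoter sequence is shown for 2 pairs of related kinases, because the pairs differ in how their ratios fell. Taok1 and Taok2, kinases of the Ste20 family that activate MAP kinase kinases, lay on opposite sides, and Tyro3 and Mertk, receptors of the TAM family that share the ligand Gas6, lay on the same side. Each sequence holds the 250 bases before an annotated start, in the direction of transcription, from RefSeq on build GRCm38.p6. Capitals mark a GC box (GGGCGG) or a CCAAT box (CCAAT), on either strand.
Taok1, negative side, chr11:77607816-77608065, minus strand: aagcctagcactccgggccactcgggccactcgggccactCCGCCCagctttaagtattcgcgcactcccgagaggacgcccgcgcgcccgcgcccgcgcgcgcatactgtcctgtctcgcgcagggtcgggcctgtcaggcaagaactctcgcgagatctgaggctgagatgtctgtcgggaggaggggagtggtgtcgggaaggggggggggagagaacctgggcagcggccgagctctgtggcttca
Taok2, positive side, chr7:126884968-126885217, minus strand: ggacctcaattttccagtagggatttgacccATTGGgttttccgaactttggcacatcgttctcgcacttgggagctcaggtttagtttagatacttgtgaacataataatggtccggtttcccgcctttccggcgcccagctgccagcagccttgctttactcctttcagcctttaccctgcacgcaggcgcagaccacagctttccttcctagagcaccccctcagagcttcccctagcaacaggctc
Tyro3, positive side, chr2:119799264-119799513, plus strand: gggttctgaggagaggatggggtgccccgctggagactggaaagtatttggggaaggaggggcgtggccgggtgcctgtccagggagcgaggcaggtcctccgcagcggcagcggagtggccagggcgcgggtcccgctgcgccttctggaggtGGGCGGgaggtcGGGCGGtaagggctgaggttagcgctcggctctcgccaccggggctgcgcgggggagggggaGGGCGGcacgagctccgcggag
Mertk, positive side, chr2:128698665-128698914, plus strand: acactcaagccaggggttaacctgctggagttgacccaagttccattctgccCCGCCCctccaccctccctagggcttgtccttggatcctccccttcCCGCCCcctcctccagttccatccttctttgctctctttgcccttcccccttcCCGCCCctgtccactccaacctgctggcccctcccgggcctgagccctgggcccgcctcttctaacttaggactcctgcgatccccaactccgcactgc

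The start of Taok1 was 68.4% G and C with 1 GC box. That of Taok2 was 53.2% G and C and held 1 CCAAT box and no GC box. Tyro3 and Mertk each had 3 GC boxes, at 73.2% and 63.6% G and C, with those of Mertk all on the other strand. Promoters were matched for 55 of the 67 genes, with 76 annotated starts, some of which may overlap within a gene. Their median GC content was 62.0%, against 52.4% for all 32851 starts of 27025 mouse genes, non-coding genes included. A GC box lay before 16 of 27 starts on the positive side (59.3%) and 30 of 49 on the negative side (61.2%), against 32.7% of all starts. The 2 sides therefore held this motif at nearly the same share. A CCAAT box lay before 5 of 27 starts on the positive side and 16 of 49 on the negative side, against 33.8% of all. TATAAA was found before 5 of 27 positive starts (Csnk2a1, Mak, Palld, Prkacb and Srpk3) and 0 of 49 negative starts, against 12.4% of all. TGACGTCA, the cAMP response element, was found before Plk2 on the positive side and Prkar1a on the negative side. The AP-1 site TGANTCA was found before 2 positive and 1 negative starts, the ETS site CCGGAAG before 3 and 5, the E-box CACGTG before 1 and 2, and the serum response element before 0. All motifs were searched on both strands. A match is a run of letters, and no binding was measured.

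Across the kinase genes the ratios were small and fell on both sides. With the clones of a gene averaged, 28 of 66 genes were positive and 38 negative, so that 42.4% were positive, against 48.6% of the 2253 other genes with a symbol. The gene medians were −0.16 and −0.098 in log2. The median absolute log2 ratio was 0.30 for kinase genes and 0.34 for the others. Kinase genes ran from −0.76 (Uhmk1) to 0.95 (Ptpra), within the −1.65 to 2.83 of all genes with a symbol. Both arrays gave the same sign for 64 of the 66, with Slk and Krt8 as the exceptions, and for 2203 of the 2253 others. Counted as clones, it was 76 of 76, against 99.5% of clones with a symbol and 69.6% of all clones. The authors had selected the listed clones on these arrays, so nothing is read from that share. The median SD between arrays was 0.0717 for the kinase genes. Over all clones with both values the arrays correlated with Pearson's r of 0.357, a description across clones. The ratio on array 2 was the larger in size for 35 of the 66 kinase genes and for 1385 of the 2253 others.

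**Figure D1:**
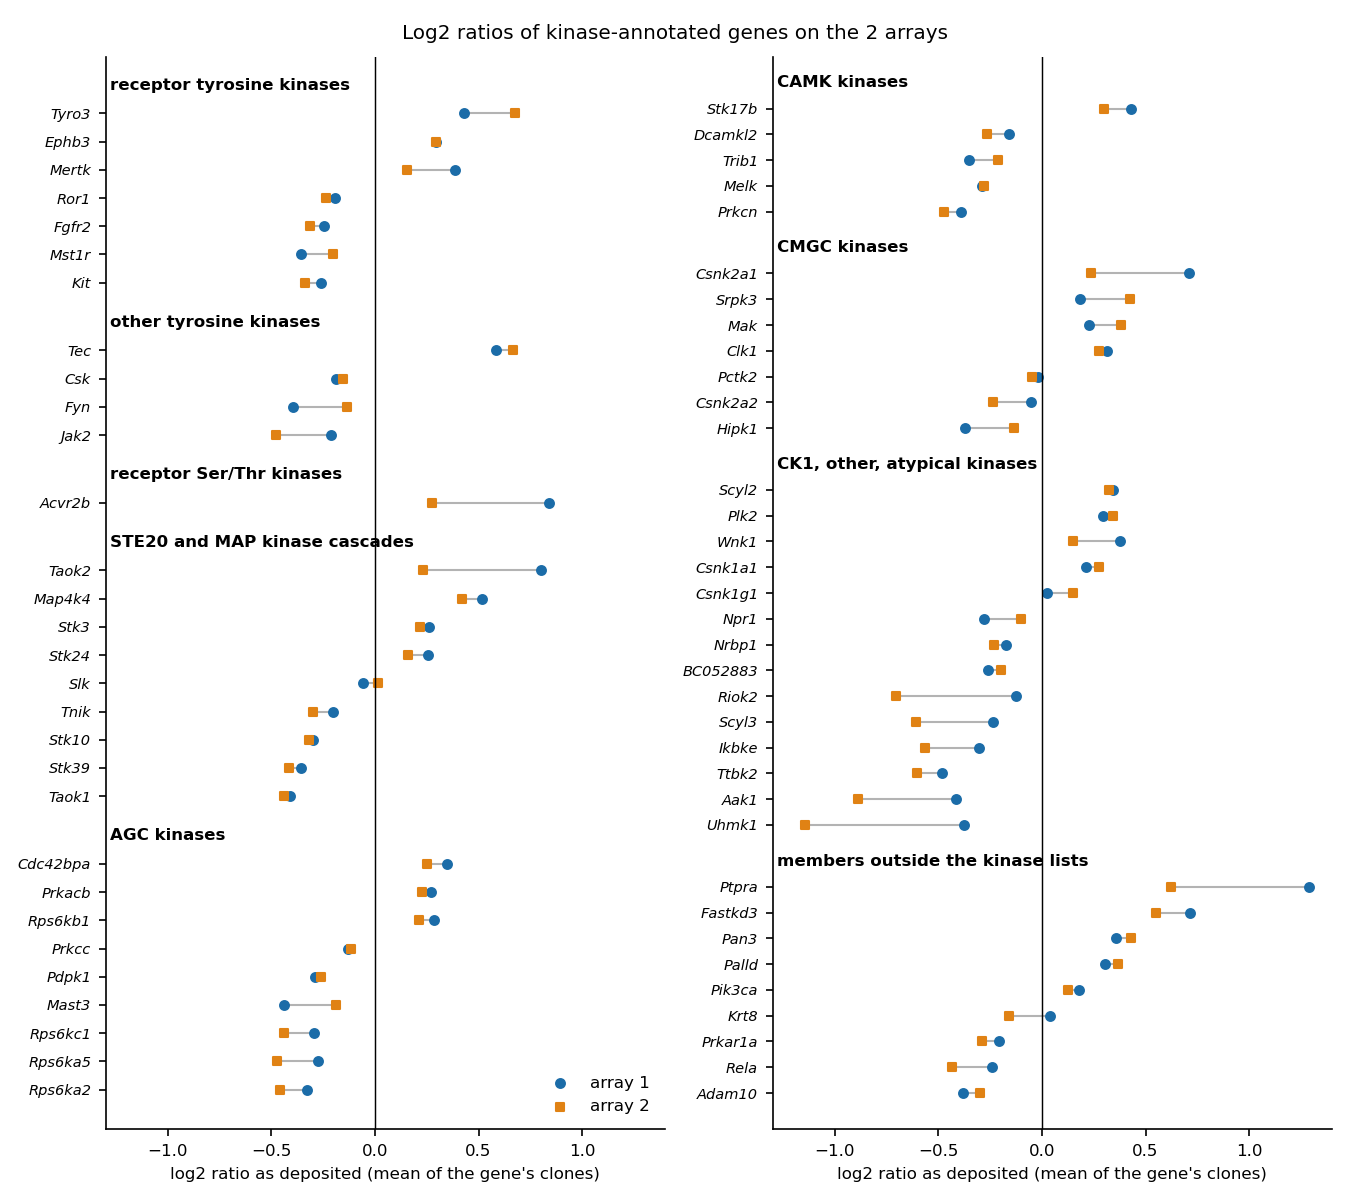
Log2 ratio (horizontal axis) of the kinase-annotated genes named in the text on array 1 and array 2, with the clones of a gene averaged; circles are array 1, squares array 2, and the line joins them. Every class with more than 1 gene holds genes on both sides of 0, and the marks for Uhmk1, Ptpra and Riok2 lie furthest apart.

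No kinase clone passed a test across the array. In limma's moderated test with Benjamini-Hochberg adjustment, 0 of 76 clones had an adjusted p under 0.05, where 0% of all 22532 clones did. The adjusted p of the kinase clones ran from 0.349 to 0.486. At an unadjusted p under 0.05 there were 37 of 76 (48.7%), where 13.9% of all clones and 59.4% of the clones with a symbol were called. Since the authors selected those clones on these arrays, nothing is read from that excess. A test without moderation gave 0 adjusted calls and 13 of 76 kinase clones at an unadjusted p under 0.05, where 8.26% of all clones were called. Past 1.5-fold on both arrays lay 1 of 76 kinase clones on the positive side, the clone of Ptpra, against 0.506% of all clones and 2.94% of the clones with a symbol. On the negative side there were 0, against 0.311% and 1.08%.

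**Figure D2:**
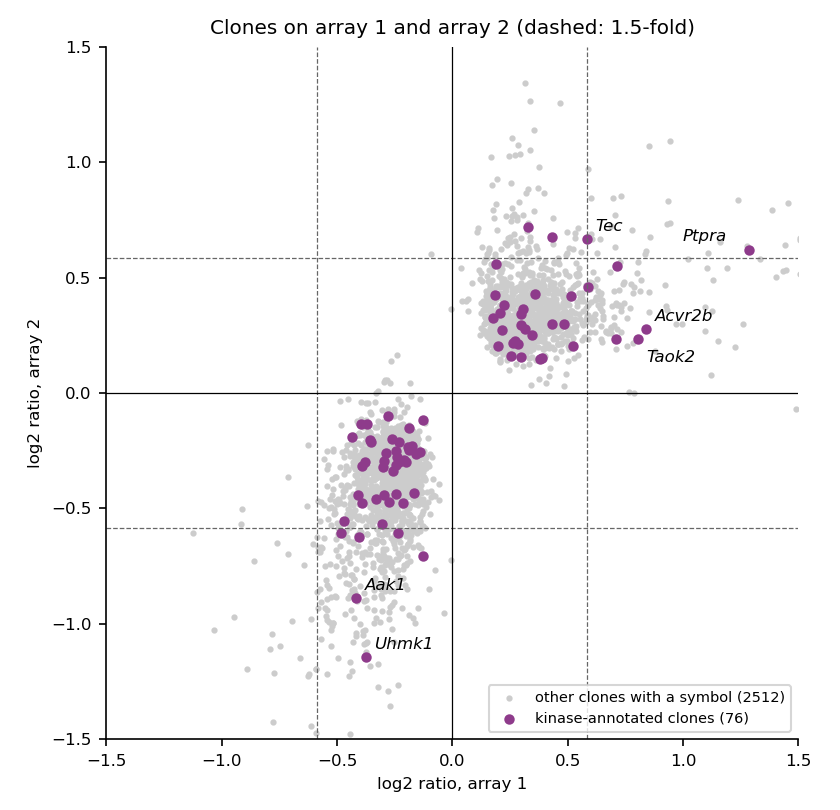
Log2 ratio on array 1 (horizontal) against array 2 (vertical) for the 76 kinase-annotated clones (purple) and the 2512 other clones with a symbol in the authors' tables (grey; 75 lie beyond the axes), with dashed lines at 1.5-fold. All 76 kinase clones have the same sign on both arrays, as do 99.5% of clones with a symbol. Of the kinase clones, Ptpra alone lies beyond the dashed lines on both.

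Of the receptor tyrosine kinases, 3 of 7 genes were positive and 4 negative, with a median of −0.21. Tyro3, a TAM receptor, stood at 0.43 on array 1 and 0.68 on array 2 (0.55 ± 0.17). Mertk, its relative that serves the uptake of dying cells, stood at 0.39 and 0.15 (0.27 ± 0.17). Gas6, a ligand of both, was also listed, at 0.32 and 0.27. Both receptors and the ligand were positive on both arrays, which describes the authors' selection on these same arrays. The SDs of the receptors were far larger than that of Ephb3, an ephrin receptor, at 0.30 and 0.29 (0.29 ± 0.0012). On the negative side, Kit, the stem cell factor receptor of mast cells and melanocytes, stood at −0.26 and −0.34 (−0.30 ± 0.054). Fgfr2, the receptor of the branching airway epithelium, stood at −0.24 and −0.31 (−0.28 ± 0.049). These 2 receptors lay close together on each array. Mst1r, the receptor for macrophage-stimulating protein, had a mean of −0.28 ± 0.11, and Ror1, a Wnt5a receptor, one of −0.21 ± 0.031.

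The cytoplasmic tyrosine kinases were mostly negative, at 3 of 4 genes with both arrays and a median of −0.22. Tec, a kinase of lymphoid and myeloid signalling, was the positive one, at 0.58 and 0.67 (0.62 ± 0.059). Its fold was 1.497 on array 1 and 1.59 on array 2, so it fell just short of 1.5-fold on the former. Jak2, which relays cytokine receptors to STAT proteins, stood at −0.21 and −0.48 (−0.35 ± 0.19). Fyn, a Src family kinase, stood at −0.40 and −0.14 (−0.27 ± 0.18). Csk, which puts the inhibitory phosphate on Src family kinases, stood at −0.19 and −0.15 (−0.17 ± 0.023). All 3 were negative on both arrays as deposited, with the arrays of Fyn and Jak2 well apart. With block medians subtracted Csk stood at −0.10 and 0.033, so its sign on array 2 turned, and the median of the 4 genes was −0.11. Lyn, a Src family kinase of blood cells, had 2.88 on array 1, a 7.34-fold ratio, and no value on array 2. The authors' deposited table gives Lyn 9.62 with a p of 0.02. Of 15 leukocyte markers searched for, 2 were listed, P2ry10 at 3.70 and Cd96 at 2.80, and both likewise had a value on array 1 only. The part of leukocytes in these ratios was not tested. In tissue RNA, fewer cells of a type and less RNA per cell cannot be told apart.

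The Ste20 kinases and their MAP kinase cascades split 4 positive to 5 negative, with a median of −0.023. With the median of each block of neighbouring clone numbers subtracted, the split was 5 to 4 and the median 0.050. Taok2 stood at 0.80 and 0.23 (0.52 ± 0.40), and Taok1 at −0.41 and −0.44 (−0.42 ± 0.022). The relatives lay on opposite sides on both arrays, as they do in the authors' tables, the negative one with far the smaller spread. Map4k4 and Tnik form another such pair of close relatives that act towards JNK. Map4k4 stood at 0.52 and 0.42 (0.47 ± 0.067), and Tnik at −0.20 and −0.30 (−0.25 ± 0.068). Stk39, which phosphorylates ion cotransporters, stood at −0.36 and −0.41 (−0.39 ± 0.042), and Stk10, a kinase of ERM proteins at the cell cortex, at −0.30 and −0.32 (−0.31 ± 0.014). Stk3, a core kinase of the Hippo pathway, had a mean of 0.24 ± 0.031 and Stk24 one of 0.21 ± 0.068. Slk, which acts on the cytoskeleton, stood at −0.059 and 0.014 and its 2 clones lay on opposite sides. The only receptor serine/threonine kinase, the activin receptor Acvr2b, stood at 0.84 and 0.28 (0.56 ± 0.40).

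The AGC kinases were 3 positive and 6 negative, with a median of −0.28. As deposited, 3 genes named for ribosomal S6 kinase had the most negative means of the family. This order depended on the clone blocks. With block medians subtracted Pdpk1 was the most negative at −0.39, against −0.37 for Rps6kc1, −0.32 for Rps6ka5 and −0.26 for Rps6ka2. Rps6ka2, an RSK kinase downstream of ERK, stood at −0.33 and −0.46 (−0.39 ± 0.091). Rps6ka5, which phosphorylates histone H3 and CREB, stood at −0.28 and −0.47 (−0.37 ± 0.14), and Rps6kc1 at −0.30 and −0.44 (−0.37 ± 0.10). Rps6kb1, the S6 kinase of the mTOR pathway, was on the other side at 0.29 and 0.21 (0.25 ± 0.051). The 4 S6-named genes thus divided 3 to 1 by side, as they do in the authors' tables. Pdpk1, which activates many AGC kinases, stood at −0.29 and −0.26 (−0.28 ± 0.019). Prkacb, a catalytic subunit of protein kinase A, stood at 0.27 and 0.23 (0.25 ± 0.031), and Prkar1a, a regulatory subunit that holds the catalytic one inactive, at −0.21 and −0.29 (−0.25 ± 0.057). The 2 subunits had ratios of nearly equal size and opposite sign. However, the other catalytic subunit, Prkaca, left out for an excluded term and given below, lay on the side of Prkar1a. Cdc42bpa, a Cdc42-binding kinase of the actin cytoskeleton, had a mean of 0.30 ± 0.068. Mast3 stood at −0.44 and −0.19 (−0.31 ± 0.18), and Prkcc, the gamma isoform of protein kinase C, had a mean of −0.12 ± 0.0081.

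Of the CAMK family, 2 genes were positive and 4 negative, with a median of −0.25. Stk17b, a kinase linked to apoptosis in T cells, stood at 0.43 and 0.30 (0.37 ± 0.093). Prkcn, the current Prkd3 and a target of diacylglycerol, stood at −0.39 and −0.48 (−0.43 ± 0.058). Melk stood at −0.29 and −0.28 (−0.29 ± 0.0063). Trib1, a pseudokinase that brings substrates to a ubiquitin ligase, had a mean of −0.28 ± 0.10, and Dcamkl2, the current Dclk2, one of −0.21 ± 0.075.

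The CMGC kinases were 4 positive and 3 negative, with a median of 0.30, the one family of several genes that lay mostly on the positive side. With block medians subtracted the split was 5 to 2 and the median 0.14. Csnk2a1, a catalytic subunit of casein kinase 2, stood at 0.71 and 0.24 (0.47 ± 0.34), so the arrays disagreed in size. Clk1, which phosphorylates SR splicing factors, stood at 0.32 and 0.28 (0.30 ± 0.028). Srpk3, an SR protein kinase of muscle, stood at 0.18 and 0.43 (0.31 ± 0.17), and Mak, a kinase of germ cells and cilia, at 0.22 and 0.38 (0.30 ± 0.11). Clk1 and Srpk3, both kinases of SR proteins, were in the authors' up-regulated table and positive on both arrays. With block medians subtracted their means were 0.14 and 0.32. Srpk2, another SR protein kinase, left out for an excluded term, stood at −0.31 and −0.45. Listed kinases of SR proteins thus lay on both sides. Of the muscle markers searched for, 1 of 4 of smooth muscle and 2 of 6 of striated muscle were listed. Myh11 of smooth muscle stood at 0.54 and 0.71, Tnnt2 of heart at 0.47 and 1.26 and Myh6 of heart at −0.19 and −0.56, so they lay on both sides. Their part in the ratio of Srpk3 was not tested. Hipk1, a nuclear kinase of transcription corepressors, stood at −0.37 and −0.13 (−0.25 ± 0.17). Csnk2a2, the other catalytic subunit of casein kinase 2, and Pctk2, the current Cdk17, had means of −0.14 ± 0.13 and −0.032 ± 0.021 over clones that disagreed.

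The most negative kinases belonged to the CK1, other and atypical families, with 5 genes positive, 9 negative and a median of −0.22. Uhmk1, which binds RNA and phosphorylates splicing factors, stood at −0.38 and −1.15 (−0.76 ± 0.54). Aak1, a kinase of clathrin adaptors in endocytosis, stood at −0.42 and −0.89 (−0.65 ± 0.33). Ttbk2, a kinase needed to start cilium formation, stood at −0.48 and −0.61 (−0.54 ± 0.088). Uhmk1 and Aak1 owed most of their means to array 2, whereas Ttbk2 had the most negative array 1 ratio of all kinase clones. Ikbke, an IKK-related kinase of interferon responses, stood at −0.30 and −0.57 (−0.44 ± 0.19). Rela, an NF-kappaB subunit, lay on the same side at −0.24 and −0.44 (−0.34 ± 0.14). Nfkb1 and Nfkbiz, listed genes that are no members, were positive, at 0.28 and 0.34 and at 0.34 and 0.51. Listed genes of NF-kappaB thus lay on both sides. Riok2, of ribosome assembly, stood at −0.13 and −0.71 (−0.42 ± 0.41), and the pseudokinase Scyl3 at −0.24 and −0.61 (−0.42 ± 0.26). Its relative Scyl2, a pseudokinase of clathrin-coated vesicles, was positive at 0.35 and 0.32 (0.33 ± 0.016).

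The remaining genes of these families were smaller in size. Plk2, a polo-like kinase induced by stress, stood at 0.30 and 0.34 (0.32 ± 0.031). Wnk1, which controls chloride cotransporters through Stk39 and its relative, stood at 0.38 and 0.15 (0.26 ± 0.16), opposite in sign to Stk39, but a second listed clone of Wnk1, which lacks the kinase annotation, stood at −0.29 and −0.32, on the side of Stk39. Csnk1a1, the casein kinase 1 that primes beta-catenin for destruction, stood at 0.21 and 0.27 (0.24 ± 0.043). Its relative Csnk1g1 had a mean of 0.087 ± 0.089 over clones that disagreed. The natriuretic peptide receptor Npr1, a guanylyl cyclase with a kinase-like domain, had a mean of −0.19 ± 0.13, Nrbp1 one of −0.20 ± 0.038 and BC052883 one of −0.23 ± 0.047.

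The 9 annotated genes that are not protein kinases were 5 positive and 4 negative, with a median of 0.15. Ptpra, a receptor tyrosine phosphatase that removes the inhibitory phosphate of Src family kinases, stood at 1.29 and 0.62 (0.95 ± 0.47), a 1.94-fold mean ratio. Its folds of 2.44 and 1.54 put it past 1.5-fold on both arrays, but not when the arrays were brought to the same spread or block medians were subtracted. Fastkd3, a mitochondrial protein of RNA metabolism, stood at 0.71 and 0.55 (0.63 ± 0.12), with folds of 1.64 and 1.46. Among members measured on both arrays these 2 had the most positive means as deposited, and neither is a protein kinase. Tec, a protein kinase, followed closely at 0.62 ± 0.059. By the smaller of the absolute ratios Tec, at 0.58, was ahead of Fastkd3, at 0.55. With block medians subtracted Fastkd3 was no longer next after Ptpra. Pan3, a subunit of a poly(A) nuclease with a pseudokinase domain, stood at 0.36 and 0.43 (0.39 ± 0.050), and Palld, an actin scaffold, at 0.30 and 0.37 (0.34 ± 0.043). Adam10, a membrane protease that cuts Notch and other receptors, stood at −0.38 and −0.30 (−0.34 ± 0.056). Pik3ca, a lipid kinase of the PI 3-kinase pathway, had 0.15 ± 0.038, and Krt8, a keratin of simple epithelia, stood at 0.037 and −0.16 (−0.063 ± 0.14). With the 9 left out, 23 of 57 genes were positive (40.4%) and the median was −0.19.

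Some genes were measured with more than 1 clone, that is, with different probes. Of the 9 genes with more than 1 member clone, 6 had clones on both sides (66.7%), against 105 of 214 other genes (49.1%). For Csnk2a2 one clone stood at −0.40 and −0.63 and the other at 0.30 and 0.16. The 2 clones of Pik3ca stood at −0.23 and −0.21 and at 0.59 and 0.46, and those of Csnk1g1 at −0.14 and −0.26 and at 0.19 and 0.56. In each case the clones of the gene lay on opposite sides. Each clone had the same sign on both arrays, which describes the authors' selection on these same arrays. Slk had a clone at −0.30 on both arrays and one at 0.18 and 0.32. Pctk2 had one at −0.23 and −0.30 and one at 0.20 and 0.21. Krt8 had clones at 0.52 and 0.20, at −0.24 and −0.25, and at −0.17 and −0.43, the last of which the authors' deposited table places on another chromosome than the gene. The gene means of these 6 therefore average opposing clones. The genes with both clones on 1 side were Stk39 (−0.24 and −0.28, −0.47 and −0.55), Melk (−0.19 and −0.25, −0.39 and −0.32) and Scyl2 (0.49 and 0.30, 0.20 and 0.34). The other 57 genes with both arrays rest on 1 member clone each. Of these, Wnk1 alone had a further listed clone of the same gene, given above, which lay on the other side.

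**Figure D3:**
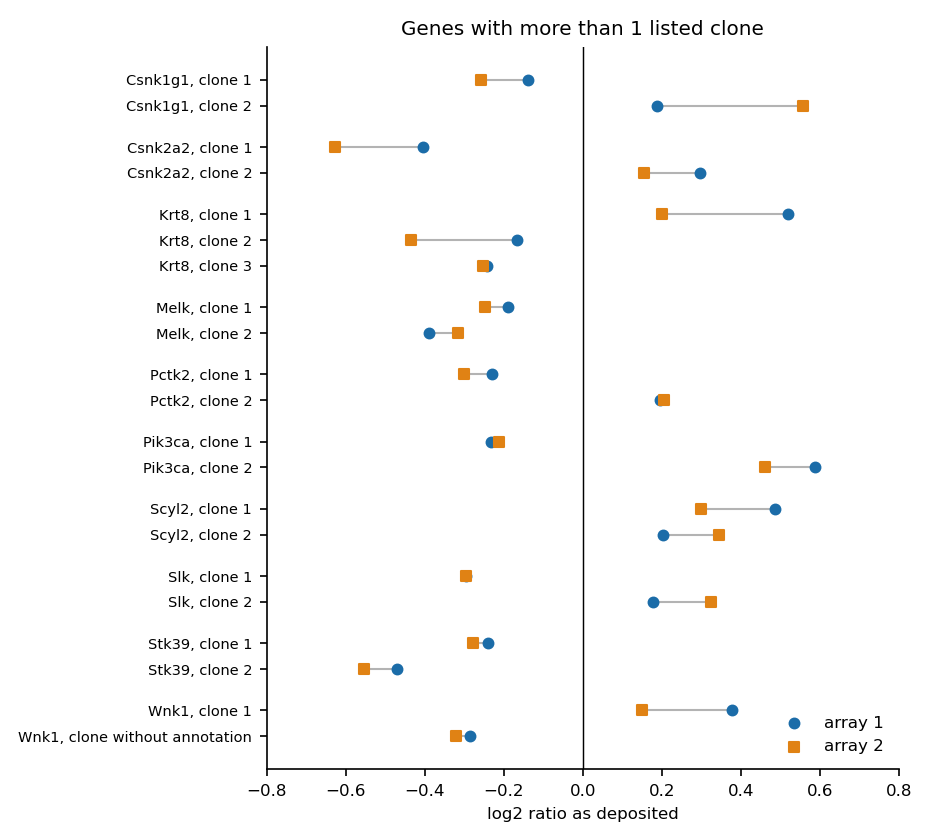
Log2 ratio (horizontal axis) of clones (rows) on array 1 (circles) and array 2 (squares) for the 9 genes with more than 1 member clone. Wnk1 is also shown, with its member clone and its listed clone without the kinase annotation. The line joins the 2 arrays of a clone. In 6 of the 9 genes, and in Wnk1, the clones lie on both sides of 0, and Stk39, Melk and Scyl2 have all clones on 1 side.

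The annotation of the members was read for what the rule did not use. Of 14 kinase genes annotated to the cytoplasm, 3 were positive (21.4%), against 49.0% of 196 other genes with that term. Of 10 annotated to intracellular signalling cascades, 2 were positive, against 23 of 52 others. Tyrosine kinases by annotation divided 6 to 8 and serine/threonine kinases 19 to 27, so these 2 main kinds lay on the sides in like proportion. Membrane proteins divided 5 to 8 and nuclear ones 5 to 10, where 46.1% and 49.2% of other genes with these terms were positive. Genes annotated to apoptosis were 3 positive and 2 negative, where 48.1% of others were positive. Those annotated to signal transduction divided 3 to 3 and those to metal ion binding 4 to 4. The terms overlap, and with so few genes each is a count only.

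The partners of the kinases were taken from lists of the pathways, and few were in the authors' tables. Of 53 ligands of receptor tyrosine kinases 5 were listed, 4 positive and 1 negative, with a median of 0.26. Nrg3, a ligand of ErbB receptors, stood at 0.31 and 0.43, and Gas6 is given above. Of 46 adaptors and Ras activators 7 were listed, 5 positive and 2 negative (median 0.35). Rap1a, a small GTPase, stood at 0.40 and 0.54, and Cbl, a ubiquitin ligase that turns off receptor tyrosine kinases, at 0.32 and 0.61. Of 51 regulatory subunits and scaffolds 10 were listed, 8 positive and 2 negative (median 0.25). Calm2, a calmodulin, stood at 0.46 and 0.52, and Ywhaz, a 14-3-3 protein that binds phosphorylated proteins, at 0.38 and 0.36. The count of ligands includes Efna5 and that of regulatory subunits Hsp90aa1 as positive, each a mean over clones on both sides. With such genes left out, as decided after seeing the data, the 3 lists held 3 positive to 1 negative, 5 to 2 and 7 to 2, and their difference from the kinases was not tested. They also share the authors' selection.

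Protein phosphatases, the opponents of the kinases, were listed for 12 of 65 genes, and of 11 with both arrays 8 were positive and 3 negative, with a median of 0.089. Dusp3, a dual-specificity phosphatase of MAP kinases, stood at 0.31 and 0.29, and Ptpn21 at −0.31 and −0.87. By annotation, 15 of 23 phosphatase genes were positive (median 0.089), among them Ppm1f at 2.02 and 0.45 and Ptprn at 0.44 and 0.42. With block medians subtracted these counts were 7 of 11 and 14 of 23. In each of these lists 4 of the positive genes were means over clones on both sides (Ppm1a, Ppm1b, Ppp2r5c and Ptprd in the first, Ppm1b, Ptp4a1, Ptp4a2 and Ptprd in the second). The genes whose clones all lay on 1 side divided 4 to 3 and 11 to 8. Of 30 PI 3-kinase and lipid signalling genes 4 were listed, 1 positive and 3 negative (median −0.37). Plcg1, the phospholipase bound by receptor tyrosine kinases, stood at −0.46 and −0.79, and Pik3r3, a PI 3-kinase regulatory subunit, at 0.33 and 0.88. Of 26 immediate targets of MAP kinases 2 were listed, both negative. Atf2 stood at −0.34 and −0.42, and Elk4 at −0.20 and −0.49. Genes annotated to small GTPase signalling divided 13 to 10, with Arl4a at −0.54 and −0.50. The 16 kinase-annotated genes with an excluded term divided 7 to 9, with a median of −0.27. None of these lists had a clone with an adjusted p under 0.05 in limma.

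**Figure D4:**
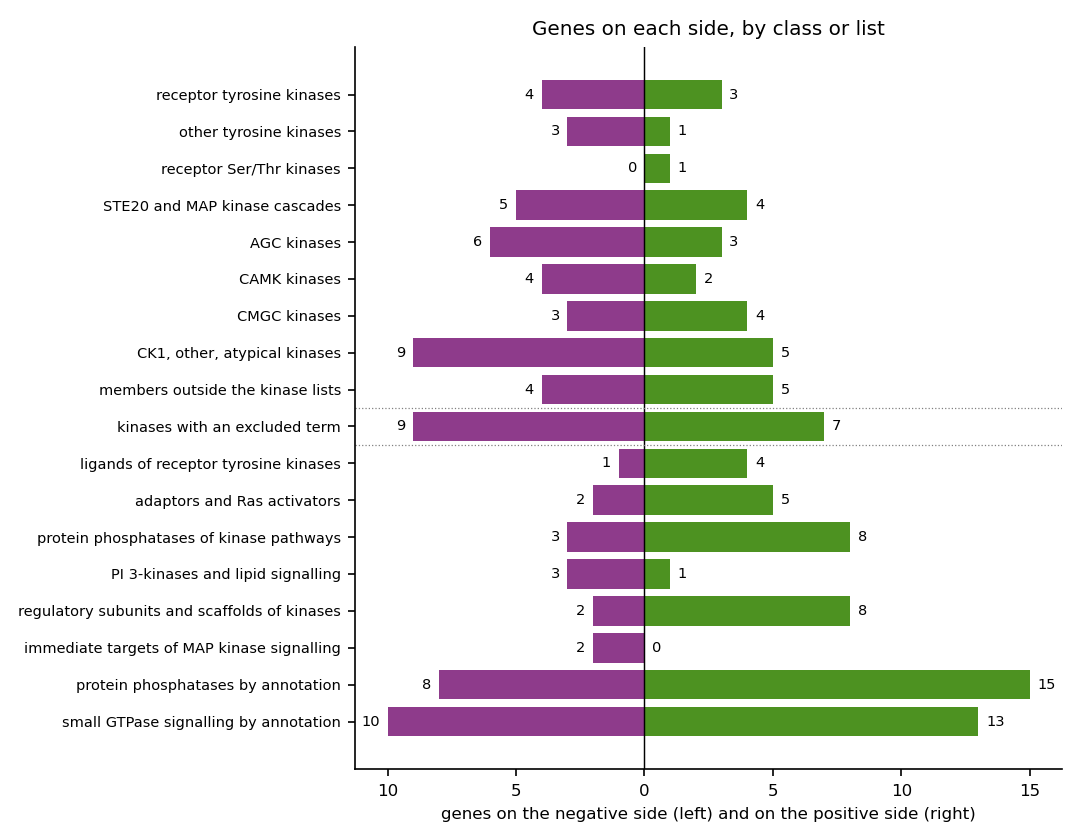
Number of genes on the negative side (bars to the left of 0) and on the positive side (bars to the right) in each kinase class, in the kinases with an excluded term and in each partner list, from the mean of the 2 arrays. AGC kinases (3 positive, 6 negative) and CK1, other and atypical kinases (5 and 9) lie mostly to the left, and regulatory subunits and scaffolds (8 and 2) mostly to the right.

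The ratios also moved with the clone number. Blocks of consecutive clone numbers had medians that differed, and whether a block shares a place on the array is not given in the files. Subtracting the block medians shifted a kinase clone by up to 0.245, with a median shift of 0.0704. The mean of 6 clones shrank to less than 0.5 of its deposited size, those of Clk1, Csk, Hipk1 and Stk3 and 1 clone each of Csnk1g1 and Pctk2. After this, 0 of 76 clones changed the sign of their mean, and the gene means of Pctk2 and Slk became positive, giving 30 positive and 36 negative genes with a median of −0.094. Centring, bringing the arrays to the same spread and quantile normalisation each left 28 positive and 38 negative.

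**Figure D5:**
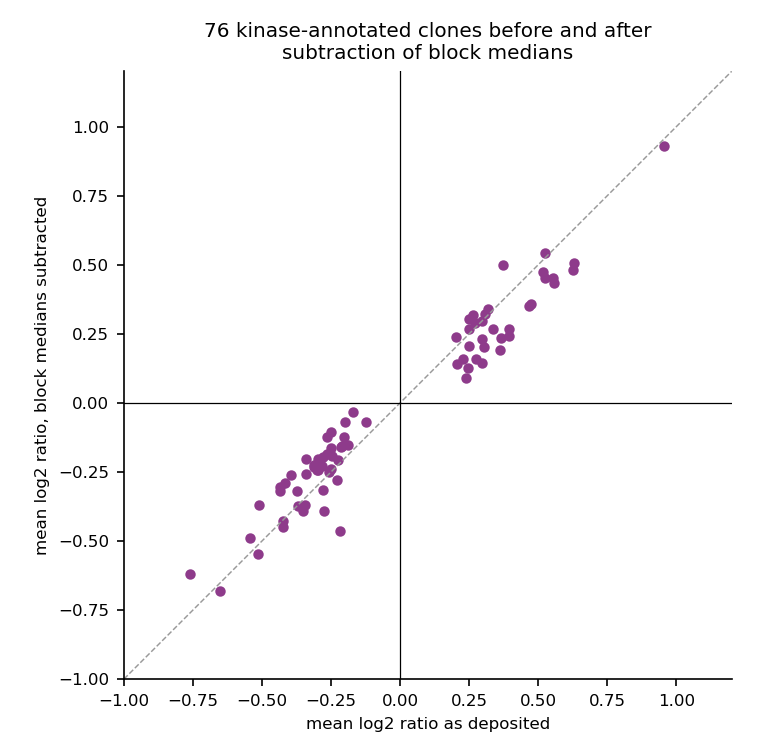
Mean log2 ratio of each kinase-annotated clone as deposited (horizontal axis) against its mean after the median of its block of neighbouring clones was subtracted (vertical axis). No clone crosses 0, and the largest shift is 0.245.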

How the data were processed

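Dual-colour cDNA arrays of lung RNA were analysed for 2 hybridisations, each setting RNA labelled wild type (Cy5) against RNA labelled Bclaf1 knock out (Cy3). The deposited values were log2 ratios, 1 per clone and array, normalised by the authors by a method not given in the sources used here. Fold changes with p-values stand in the authors' deposited tables of up- and down-regulated genes. These supplied names and annotation, and their values were printed only where credited. Scanner intensities were not analysed here.

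A departure of each clone's mean ratio from 0 was tested in R 4.3.3 by limma 3.58.1 (intercept model, eBayes, Benjamini-Hochberg over 22532 clones with both arrays, n = 2). The test was checked on simulated data with shifts larger than the mean ratio of any kinase gene with both arrays. How often it finds shifts of their size was not checked. The medians of all clones were 0.0068 and 0.0041 and the SDs 0.295 and 0.430, and the number of arrays limits the precision. Clones of a gene were averaged. A gene was called past 1.5-fold only if both arrays passed on the same side. Values are mean ± SD over 2 arrays unless stated.

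Of the 77 member clones, 75 were named by gene ID and symbol in RefSeq, 1 by gene ID and 1 by symbol. The text names every member but 1, which is not reported here by name and stays in the counts. It gives both arrays for up to 4 members of a family, 10 of a side and all members with several clones, chosen by the smaller of their absolute ratios, and names 2 genes of each partner list. Both arrays are also given for further members that this rule did not choose, among them Mertk, Taok2, Tnik, Prkar1a, Wnk1, Hipk1, Mast3 and Riok2. The members and lists were chosen with earlier results of these data known. Other scalings, filters, thresholds and member rules, and leaving out each array, were tried as alternatives.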

Additional observations from a re-analysis of the deposited data

How the results depend on the processing

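The split of kinase genes, 28 positive and 38 negative, kept its direction under every alternative run, with 23 to 35 positive and 34 to 47 negative genes and a median between −0.208 and −0.094. This was not particular to kinases. Over the scalings, all 2319 genes with a symbol gave 1117 to 1122 positive and 1197 to 1202 negative, with medians of −0.112 to −0.061. Without 1 of the arrays the kinase split was 29 to 30 positive and 37 negative, with medians of −0.135 and −0.128. Lyn was counted where array 2 was left out. The count past 1.5-fold on the positive side, 1 as reported, was 0 with the arrays at the same median absolute deviation, 0 with block medians subtracted, 0 for genes annotated with kinase activity alone, 0 at 2-fold, and 0 for genes in a kinase list, an alternative chosen after seeing the data. It was 2 with the excluded genes put back, 2 with Lyn on its 1 array counted, and 5 at 1.3-fold. From array 1 alone it was 6, Lyn included, and from array 2 alone it was 4. The negative count, 0 as reported, was 4 at 1.3-fold, 0 from array 1 alone and 5 from array 2 alone. Counted as clones, 7.89% of kinase clones passed 1.3-fold on the positive side and 7.89% on the negative side, against 9.89% and 8.42% of clones with a symbol and 2.12% and 1.83% of all clones. On array 1 alone, 7.89% of kinase clones were past 1.5-fold on the positive side and 0% on the negative side, against 7.50% and 1.28% of clones with a symbol and 3.16% and 0.648% of all clones. On array 2 alone these shares were 5.26% and 7.89%, against 6.30% and 11.1%, and 5.201% and 4.65%. All these clone shares leave out Lyn, which had no value on array 2. The adjusted p was under 0.05 for 0 kinase clones in all 8 limma settings, with 13 to 38 of 76 at an unadjusted p under 0.05, where 8.26% to 15.5% of all clones were. Taking the clone with the smallest absolute mean changed the side of Csnk1g1, Csnk2a2, Pctk2, Pik3ca and Slk. Leaving out array 1 changed that of Slk, and leaving out array 2 or the clone on another chromosome that of Krt8. The cause was not tested. No paired analysis was possible because each array already sets 1 genotype against the other. Filters on dim spots were not run, since intensities were not used.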

Other observations

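The authors' deposited table gives a fold change for each clone that mostly lies between the folds of the 2 arrays. For 15 of the 76 kinase clones (19.7%) it lay outside both by more than 0.005, and in 12 of these it was further from 1. Among the 2588 clones with a symbol this held for 361 (13.9%), with 207 further from 1. For Slk the authors' deposited table gives 0.74 for a clone whose deposited ratios were 0.814-fold on both arrays. For Fyn it gives 0.70, where the arrays gave 0.759-fold and 0.910-fold, and for Ephb3 1.27, where both arrays gave 1.23-fold. These examples were chosen after their values were seen.

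In protein kinase A signalling, the other catalytic subunit, Prkaca, left out for an excluded term, stood at −0.41 and −0.18, opposite in sign to Prkacb. Pkia, an inhibitor of the catalytic subunits, stood at −0.32 and −0.55. Both genes were picked after their values were seen. A pair of clones with the symbol Cdc42bpa but the gene ID of another gene stood at −0.23 and −0.22 and at −0.32 and −0.30, on the other side from the member clone, and which gene they measure is uncertain.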
